A study of Canis lupus familiaris with 4 samples.

Results

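The array of the line labelled J3T-1 was compared with that of the line labelled J3T-1shA across 6944 of the 15115 genes that the canine array names by a single symbol. J3T-1 is a canine glioblastoma line labelled as expressing high annexin A2, and J3T-1shA is labelled as J3T-1 cells with a knockdown of annexin A2. A gene was a member where its brightest probe set had a signal of at least 250 on the higher of these arrays, and the remaining 8171 genes were under that limit. The value of each gene is the log2 ratio of the signal on the J3T-1 array over that on the J3T-1shA array, so that positive values are higher on the J3T-1 array. Signals are given in that order, and arrays are named by their labels.

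Total RNA of 4 cultured lines that stem from 1 parental dog tumour line was hybridized, with 1 array per line. J3T-2 (labelled as expressing low annexin A2) and J3T-2A (labelled as overexpressing it) are used here only to place the levels. All 4 lines grew in the same serum-containing medium. The labels list each line as a subclone and name no control short hairpin RNA, so a difference between J3T-1 and J3T-1shA from the silencing of ANXA2 cannot be told apart from one due to the making of the line or to the culture. There were no replicates, so no difference below has a test, and "higher" or "lower" describes these arrays.

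Annexin A2 is a calcium-dependent protein that binds membrane phospholipids and forms a tetramer with S100A10, which brings plasminogen and its activators to the cell surface. Myofibroblast-like cells are known by smooth muscle actin, by the myosin and actin-binding proteins of contraction, and by a collagen-rich matrix that they secrete. The same genes are classical targets of TGF-beta signalling, of the actin-sensing factors MRTF and SRF, and of the YAP and TEAD factors. Mesenchymal states of glioblastoma cells share part of this programme, which is why contractile, matrix, secreted, metabolic and signalling families are described side by side.

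The targeted gene did not check the label. The brightest probe set of ANXA2 had signals of 28656 against 30093 (log2 ratio -0.07), and a second bright probe set gave -0.09. Both lay among the brightest signals of the arrays, whose highest were 44911 and 44435, and compression at that end was not tested. On the J3T-2 and J3T-2A arrays, ANXA2 had 30102.5 and 28774.6 by its brightest probe set, and 30310.9 and 35650.8 by the second. Neither pair of lines was thus 2-fold apart by these probe sets, whatever its labels. S100A10, the partner of annexin A2, was within 2-fold, at 20191 against 16678. Of 8 measured annexins, 0 were over 2-fold higher and 0 over 2-fold lower, beside 3.8% and 4.26% of all measured genes (median log2 ratio 0.04). The calcium-binding ANXA5 was the farthest above 0, at 7193 against 4299. ANXA6 was the farthest below 0, at -0.73 by its brightest probe set and -0.30 and -1.22 by its others.

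The tissue label was set beside cell type markers. Among astrocyte genes, GFAP, the glial filament protein, had signals of 14.3 and 13.4, at the bottom of both arrays. AQP4, the water channel of astrocyte endfeet, had 3.4 and 4.2. The neural stem cell factor SOX2 was measured, at 936.8 against 1663. VIM, the mesenchymal filament vimentin, was near the top of both arrays, at 41177 and 43058. Of the marker lists, 0 of 10 endothelial genes were measured (the summed signals were 569.0 and 764.4), 1 of 11 microglia and macrophage genes (C1QA, at 661.5 against 514.8), 1 of 6 oligodendrocyte genes (CNP, at 396.9 against 977.2), 1 of 6 epithelial genes (KRT8, at 435.4 against 562.6) and 5 of 11 neuronal genes (median log2 ratio -0.36, and summed signals of 5542.0 and 5136). The astrocyte list had 3 of 8 measured (median log2 ratio -0.93, and summed signals of 8389.7 and 10870). These were the glutamate transporter SLC1A3 (2422 against 5506), the gap junction gene GJA1 (787.2 against 1499) and the aldolase ALDOC (4900 against 3604). Astrocyte genes thus lay on both sides of the limit, and the lines are described by their labels alone.

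Of the 6944 measured genes, 264 (3.8%) had a J3T-1 signal more than 2-fold above the J3T-1shA signal, 296 (4.26%) were over 2-fold lower, and 6384 lay within 2-fold. The counts of each list below are to be read beside these shares. No list was tested against them, and a count near them is no result about its family. The median log2 ratio of all measured genes was 0.03 and their SD was 0.70. Large ratios were more often on the lower side: 49 genes were over 4-fold higher and 93 over 4-fold lower, and 21 and 43 were over 8-fold. Both signals reached the limit in 153 of the higher genes and 152 of the lower ones. In the rest 1 array was under the limit, and there both signals are given below in place of a fold, while log2 ratios of such genes rest on a dim signal. A second probe set reached the limit for 122 of the higher genes and gave the same sign for 118 of them, and did so for 129 of 129 lower genes. It was itself over 2-fold the same way in fewer, 76 of these 122 higher genes and 96 of these 129 lower ones. The log2 ratios of 2 probe sets of a gene differed with an SD of 0.38 over 3769 genes, which covers the measurement within an RNA sample and not the spread between cultures. At the limit itself, API5 was just inside with a higher signal of 250.0 and ARNT just outside with 249.9.

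**Figure D1:**
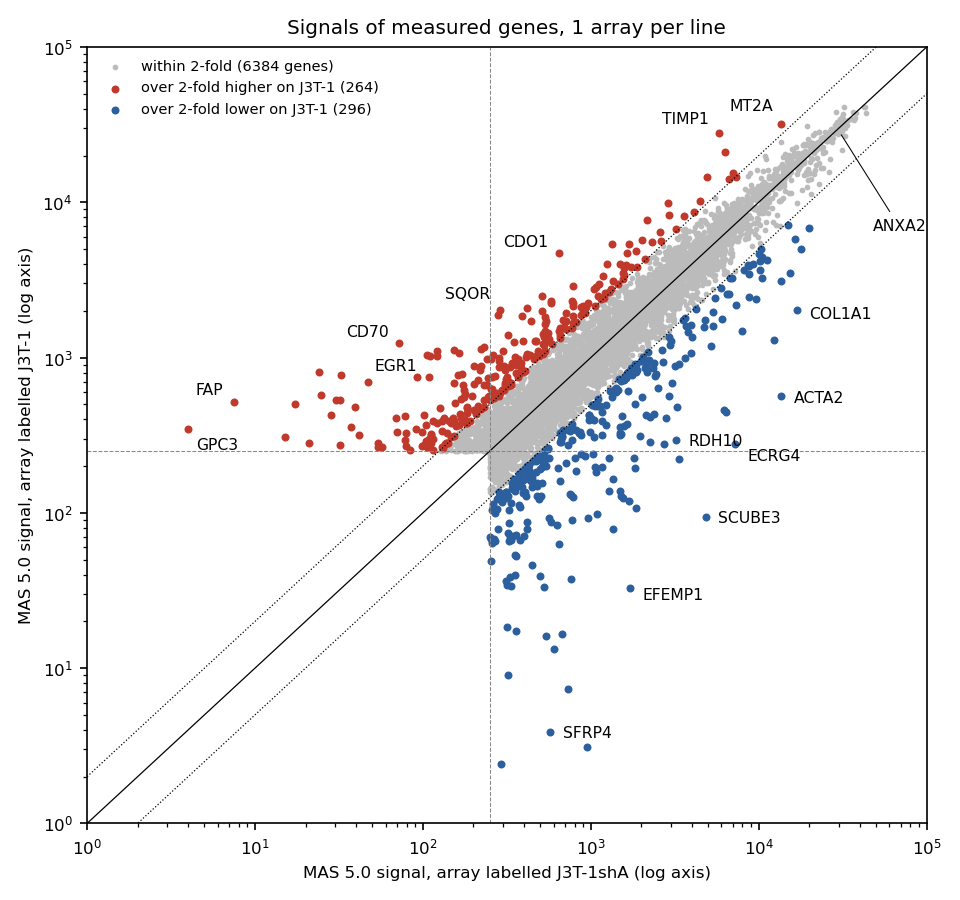
MAS 5.0 signal on the J3T-1 array (y axis, log) against that on the J3T-1shA array (x axis, log) for the 6944 measured genes, 1 point per gene and 1 array per line. The solid line marks equal signals, the dotted lines a ratio of 2 and the dashed lines the limit of 250. ANXA2 lies on the diagonal, ACTA2 and ECRG4 lie far below it and CD70, CDO1 and TIMP1 above it.

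The contractile genes were lower on the J3T-1 array. Of 22 genes of smooth muscle actin and myosin, 17 were measured, 16 of these had a log2 ratio below 0, 5 were over 2-fold lower and 0 over 2-fold higher (median -0.54, or -0.89 with each gene's probe sets taken by their median). ACTA2, the smooth muscle alpha-actin that defines myofibroblasts, had signals of 562.2 against 13625, a 24.2-fold lower value, and of 24.9 and 98.7 on the J3T-2 and J3T-2A arrays. The J3T-1shA array was thus the brightest of the 4 for this gene. CNN1, the smooth muscle calponin that binds actin, was 4.69-fold lower (318.4 against 1494), and its second probe set gave a log2 ratio of -1.66. MYL9, the regulatory light chain whose phosphorylation drives contraction, was 2.45-fold lower (1611 against 3951). MYLK, the kinase that phosphorylates this light chain, passed it on the J3T-1shA array alone (33.9 against 334.4), as did ACTG2, the enteric smooth muscle actin (128.0 against 413.4).

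Contractile genes that all cells use differed less in their brightest probe sets. The tropomyosin gene TPM1, whose product lies along actin filaments, had a log2 ratio of -0.48 by its brightest probe set and of -2.31 and -1.22 by the others. CALD1, caldesmon, had -0.54, with -1.53 to -1.07 by 3 other probe sets, and MYH9, the heavy chain of non-muscle myosin, had -0.81. In these genes the dimmer probe sets were farther from 0 than the brightest, which for TPM1 had signals of 18976 and 26412. TAGLN, the actin-binding transgelin often used beside ACTA2 as a smooth muscle marker, was close to level, at 3523 against 4487 (log2 ratio -0.35), and was higher on both arrays than on those labelled J3T-2 and J3T-2A (489.8 and 680.3). SMTN, smoothelin, was the only measured gene of the list above 0, at 0.08. MYH11, the myosin of mature smooth muscle, DES, the muscle filament desmin, and LMOD1, leiomodin, were under the limit on both arrays.

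**Figure D2:**
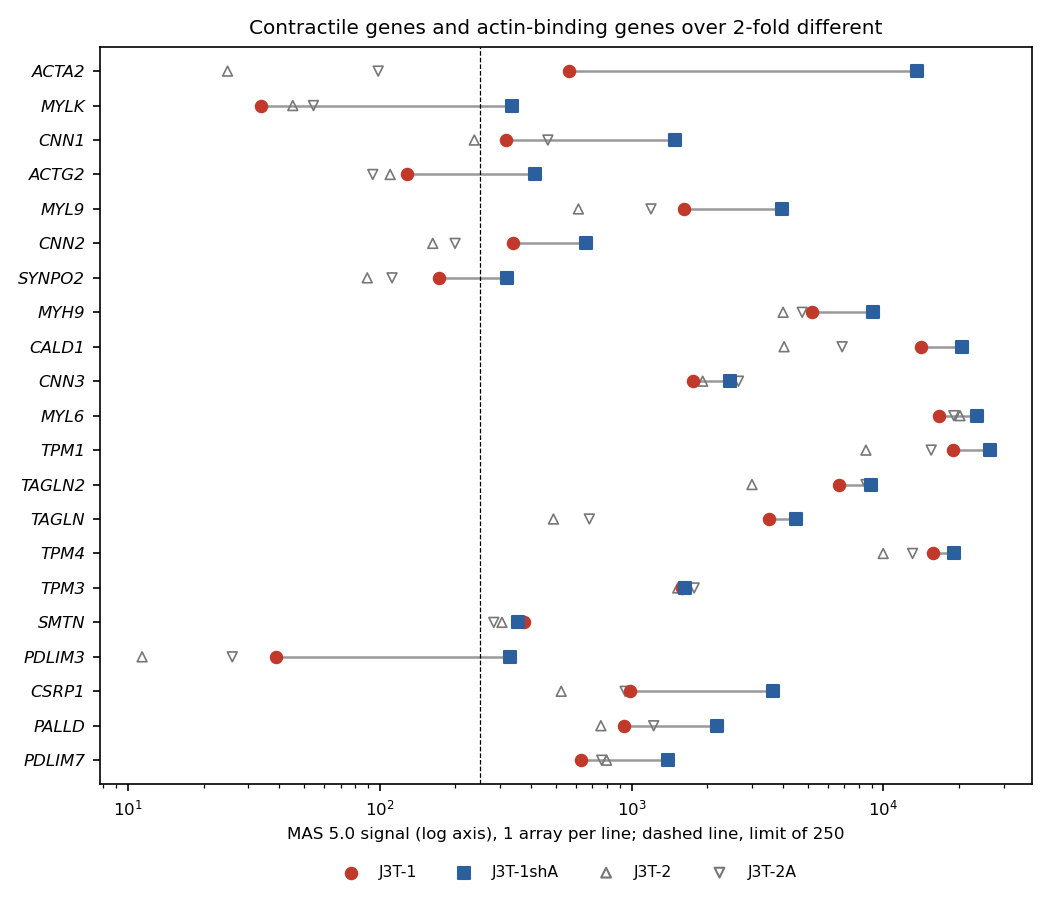
MAS 5.0 signals (x axis, log) of the 17 measured actin and myosin genes, then of the 4 focal adhesion and actin-binding genes over 2-fold different, with 1 array per line. Red circles are J3T-1, blue squares J3T-1shA and open triangles J3T-2 and J3T-2A, and the dashed line is the limit of 250. The blue square lies right of the red circle in every gene but SMTN, and for ACTA2, CNN1, MYL9 and CSRP1 right of all other symbols.

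Among 19 measured focal adhesion and actin-binding genes, 4 were over 2-fold lower and 0 over 2-fold higher (median -0.16). CSRP1, a LIM protein of the smooth muscle cytoskeleton, had 988.5 against 3631, with -1.74 by its second probe set. PALLD, the stress fibre protein palladin, and PDLIM7, an actin-anchored LIM protein, were 2.35-fold and 2.20-fold lower, but their other probe sets were within 2-fold (-0.41 for PALLD, and -0.64 and -0.54 for PDLIM7). PDLIM3, a LIM protein of muscle, had 38.9 against 329.2. FHL2, a LIM-domain coactivator that joins integrins to transcription, went the other way without passing 2-fold, at 24506 against 13528 (log2 ratio 0.86, and 0.98 by its second probe set).

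Genes of the SRF and YAP pathways are described here 1 by 1. ANKRD1, a cardiac ankyrin-repeat protein widely used as a YAP target, had 124.6 against 1562, and 6.8 and 155.3 on the J3T-2 and J3T-2A arrays, so that only the J3T-1shA array passed the limit. CCN2, the matricellular factor CTGF, was 2.28-fold lower (-1.22 by its second probe set), whereas CCN1, the other classical YAP target of this family, was within 2-fold (log2 ratio -0.37). WWC1, the scaffold KIBRA that acts upstream in the Hippo pathway, was 6.92-fold lower, at 407.5 against 2819. The DNA-binding partners of YAP were on opposite sides: TEAD4 had 1049 against 417.7 and TEAD1 164.2 against 368.4. The messenger RNAs of the factors SRF and YAP1 themselves were within 2-fold (588.1 against 652.9 for SRF, and a log2 ratio of 0.25 for YAP1).

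Secreted matrix glycoproteins were the list with the most genes over 2-fold lower. Of 25 measured, 10 were over 2-fold lower, 1 was over 2-fold higher and 19 had a log2 ratio below 0 (median -0.51). CCDC80, a secreted matrix-binding protein, had 1299.7 against 12295, a 9.46-fold lower value, and SBSPON, a thrombospondin-repeat protein, was 13.4-fold lower (460.0 against 6180), with -3.68 by its second probe set. Of the fibulins, which link elastic fibres to cells, EFEMP1 (fibulin-3) had 33.0 against 1706 and FBLN5 had 373.7 against 1642, while EFEMP2 (fibulin-4) and FBLN1 were within 2-fold (-0.51 and -0.46). FBN1, the fibrillin of elastic microfibrils, was 2.58-fold lower, but 1 of its 3 other probe sets gave 0.12. LTBP1, which tethers latent TGF-beta to these microfibrils, had 131.2 against 760.0, and TGFBI, a secreted TGF-beta target that binds collagen and integrins, was 5.11-fold lower. SPARCL1, the matricellular protein hevin, had 93.1 against 965.9. Its relative SPARC was within 2-fold by its brightest probe set (16644 against 24074) but had -1.11 by its second. TNC, tenascin-C, a glycoprotein of remodelled and tumour matrix, was the only member over 2-fold higher, at 1114 against 152.9. FN1, fibronectin, was within 2-fold, at 24537 against 20091.

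A pair of secreted genes outside the lists had similarly large ratios. ECRG4, a secreted neuropeptide-like tumour suppressor, was 26.1-fold lower (277.8 against 7262). DPT, dermatopontin, a small protein that binds decorin and collagen, had 119.9 against 1695, and 6.7 and 17.3 on the J3T-2 and J3T-2A arrays.

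Collagens were split. Of 12 measured chains 3 were over 2-fold lower and 2 over 2-fold higher (median -0.36). The fibrillar chain COL1A1 was 8.36-fold lower (-4.46 and -2.67 by 2 other probe sets). Its partner in type I collagen, COL1A2, was within 2-fold by its brightest probe set (21684 against 31253), but 3 other probe sets gave -1.26 to -0.73. COL5A2 likewise had -0.85 by its brightest probe set and -1.65 by its second. COL27A1 ran the other way, with 0.96 by its brightest probe set and 1.378 and 1.675 by the others that reached the limit. COL5A1, which starts fibril assembly, was 3.58-fold lower, and the basement membrane chain COL4A1 was 2.13-fold lower but within 2-fold by its other probe sets (-0.87 and -0.81). COL6A1, a chain of beaded filaments, had 750.3 against 92.3, with 2.1 and 2.6 on the J3T-2 and J3T-2A arrays, and COL13A1, a transmembrane collagen, had 265.9 against 57.3. Among 17 measured collagen-processing genes, 3 were over 2-fold lower and 2 higher (median -0.31). LOXL2, a cross-linking amine oxidase, was 2.80-fold lower, as were its relative LOXL3 (2.30-fold) and SERPINH1, the collagen chaperone HSP47 (2.13-fold). P4HA3, a subunit of the prolyl 4-hydroxylase that stabilizes the triple helix, was 3.64-fold higher, and PCOLCE, an enhancer of procollagen cleavage, was 2.13-fold higher. The other hydroxylase chains and folding enzymes lay within 2-fold by their brightest probe sets, among them P4HA2 (-0.72) and P4HB (-0.50). Other probe sets of these genes gave -1.10 to -0.54 for P4HA2 and -1.30 and -1.14 for P4HB.

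Proteoglycans and hyaluronan genes were balanced, with 5 over 2-fold lower and 3 higher of 16 measured and a median of 0.00. Lower ones included small leucine-rich proteoglycans that bind collagen fibrils: FMOD, fibromodulin, had 314.7 against 1957, OGN, osteoglycin, had 138.7 against 1282 and DCN, decorin, had 387.9 against 1167. LUM, lumican, of the same family, was within 2-fold, at 14940.1 against 18644. The glypicans, which carry heparan sulfate on the cell surface, were opposed, with 139.1 against 1499 for GPC4 and 347.2 against 4.0 for GPC3. SDC1, the syndecan of epithelia and plasma cells, was lower (128.4 against 480.8), and SDC4, the syndecan of focal adhesions, was within 2-fold on the higher side (0.90). HAS2, which makes hyaluronan, was 3.07-fold higher (874.9 against 285.4), VCAN, versican, a hyaluronan-binding proteoglycan, was 2.71-fold higher and the hyaluronan receptor CD44 had a log2 ratio of 0.74.

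Matrix proteases and their inhibitors also ran both ways, with 5 over 2-fold lower and 3 higher of 16 measured (median 0.16, or -0.094 with no limit on signal). The metalloproteinase inhibitors TIMP1 and TIMP3 were opposed: TIMP1 had 28104 against 5807, a 4.84-fold higher value, and the matrix-bound TIMP3 had 194.1 against 1827. TIMP1 was also bright on the J3T-2 and J3T-2A arrays (37282 and 21772), so the J3T-1shA array was the low one. PRSS23, a secreted serine protease, was 14.3-fold lower (445.7 against 6352), with -4.15 and -3.61 by 2 other probe sets. The plasminogen activators, whose substrate annexin A2 and S100A10 bind, were both lower: PLAU had 859.0 against 2334 and PLAT had 367.7 against 1223. MMP2, a gelatinase, was near the limit at 266.5 against 105.3. Among 10 measured integrins, the receptors for this matrix, 2 were over 2-fold lower and 2 higher (median 0.12, or 0.57 with a limit of 500). ITGA6, a laminin receptor chain, was 4.36-fold lower, but 1 of its 3 other probe sets gave 0.10. Further laminin receptor chains, ITGA7 (1020.5 against 120.7) and ITGA3 (670.0 against 229.8), were higher, the collagen receptor ITGA1 was lower (135.2 against 285.0), and the common beta chain ITGB1 was level (-0.01).

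**Figure D3:**
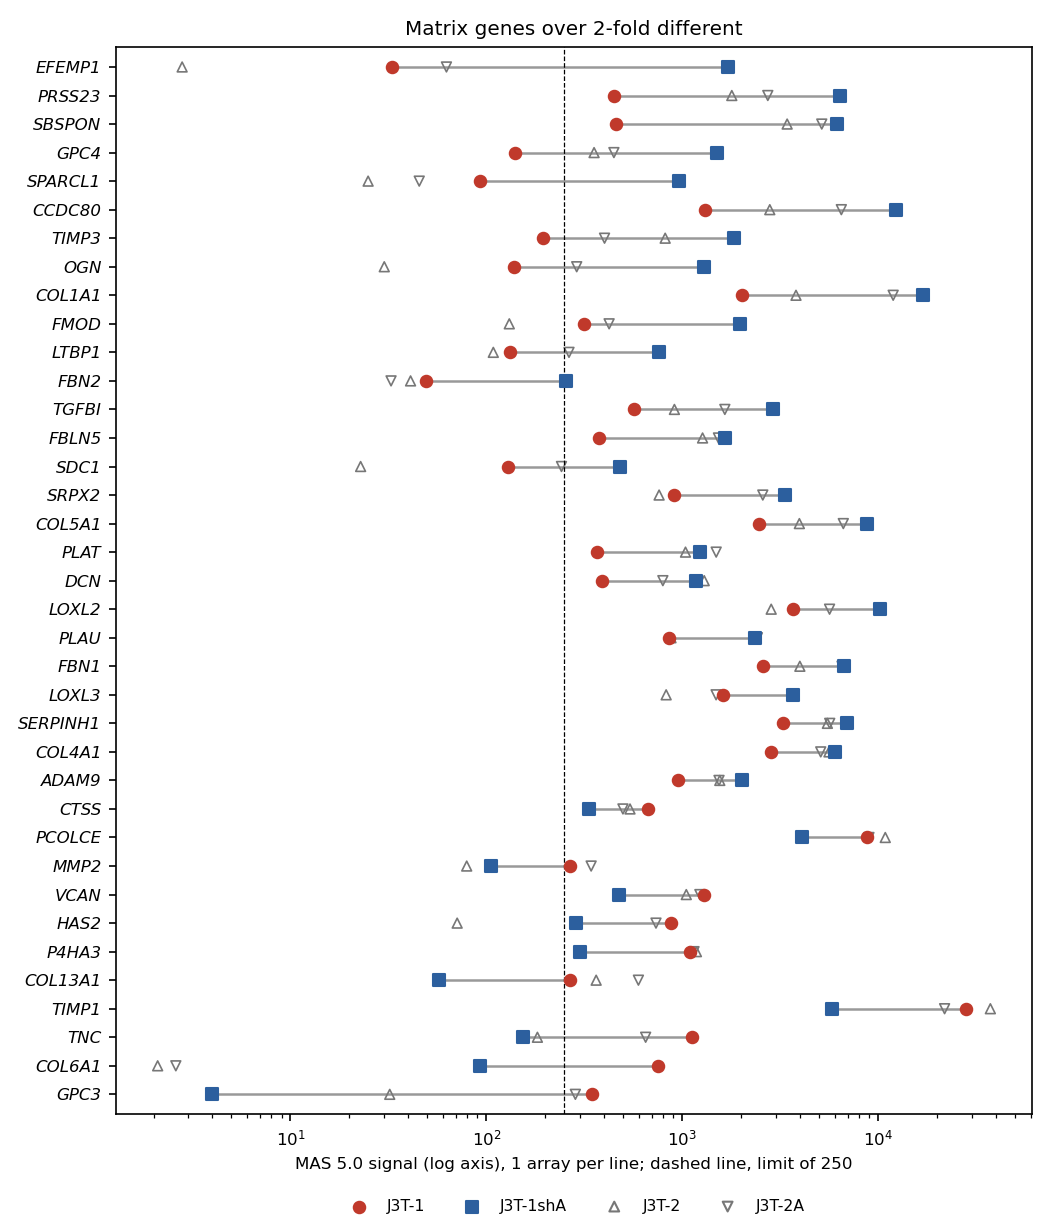
MAS 5.0 signals (x axis, log) of the collagen, collagen-processing, matrix glycoprotein, proteoglycan and protease genes over 2-fold different, ordered from lowest to highest log2 ratio, with 1 array per line. Red circles are J3T-1, blue squares J3T-1shA, open triangles J3T-2 and J3T-2A, and the dashed line is the limit of 250. EFEMP1 is at the top (33.0 against 1706) and GPC3 at the bottom (347.2 against 4.0).

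Fibroblast and pericyte markers overlapped with these lists. Of 8 measured of 13, 3 were over 2-fold lower (COL1A1, DCN and ACTA2), 1 was over 2-fold higher and the median was -0.54 (-0.95 with each gene's probe sets taken by their median), with summed signals of 71696 and 101541. The higher gene was FAP, the fibroblast activation protease, at 519.6 against 7.5 (log2 ratio 4.47 by its second probe set), and S100A4, fibroblast-specific protein 1, had a log2 ratio of 0.69. PDGFRA, the receptor that marks mesenchymal progenitors, was under the limit. Markers of 1 cell type thus lay on both sides, and the part of any mixture of cells in these ratios was not tested.

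TGF-beta and BMP signalling genes were mostly lower on the J3T-1 array, with 6 over 2-fold lower, 1 higher and 17 of 23 measured below 0 (median -0.32, or -0.13 with a limit of 500). Among ligands, BMP6 was 4.96-fold lower (426.5 against 2117) and TGFB2 was within 2-fold (2471 against 4196). SCUBE3, a secreted glycoprotein that binds TGF-beta receptors, had 94.3 against 4823, and -4.37 by its second probe set, with 203.4 and 412.6 on the J3T-2 and J3T-2A arrays. FSTL1, a secreted BMP antagonist, was 3.19-fold lower, at -1.69 and -1.60 by 2 other probe sets. The receptor chain TGFBR2 was the higher gene, at 5657 against 2623, and its 5 other probe sets gave 0.85 to 1.43. Targets and feedback genes of the pathway were lower: PMEPA1, which sequesters SMADs, was 3.35-fold lower, BAMBI, a decoy receptor, had 225.0 against 801.0, and ID3, a BMP-responsive inhibitor of basic helix-loop-helix factors, was 2.11-fold lower. ID1, its close relative, was nearly level (-0.14). GADD45B, a stress gene outside the lists that TGF-beta also induces, was 6.80-fold lower.

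Of 11 measured Wnt genes, 3 were over 2-fold lower and 0 higher (median -0.14, or -0.46 with a limit of 500). WNT5B, a ligand of the non-canonical branch, was 2.75-fold lower, DKK3, a secreted protein of the Dickkopf family, was 2.41-fold lower and SFRP4, a secreted Wnt antagonist, had 3.9 against 574.3. The SFRP4 signal was 1.0 and 7.9 on the J3T-2 and J3T-2A arrays, and 2 other probe sets gave -7.21 and -3.63. CTNNB1, beta-catenin, the effector of the canonical branch, was within 2-fold (-0.24).

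Vascular growth and vasoactive genes had 3 over 2-fold higher and 3 lower of 13 measured (median -0.48, or 0.51 with a limit of 500). VEGFA, the main endothelial mitogen, was 2.89-fold higher and PDGFC, a ligand of PDGF receptors, was 2.12-fold higher (533.3 against 251.4). FLT1, a VEGF receptor that can act as a decoy, had 1021 against 110.1. The endothelin axis, which contracts smooth muscle, was lower at both ends, with 17.3 against 359.0 for the peptide gene EDN1 and 66.0 against 326.3 for the receptor EDNRA. ANGPT1, the TIE2 agonist made by perivascular cells, had 240.0 against 1027. In the list of nitric oxide and cGMP signalling, a pathway that relaxes smooth muscle, 2 of 6 measured genes were over 2-fold higher and 0 lower (median 0.84, or 0.24 with no limit on signal). GUCY1A1, a subunit of soluble guanylate cyclase, was 4.76-fold higher (1842 against 387.4), and the other subunit, GUCY1B1, had 1011 against 516.2, or 1.96-fold. ARG2, an arginase that competes for the substrate of nitric oxide synthase, was 2.15-fold higher.

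Inflammatory genes were few. Of 8 measured chemokines and cytokines, CXCL8 and CCL2, which draw neutrophils and monocytes, were higher (691.1 against 46.9 and 753.5 against 108.3), and CXCL16, a membrane-bound chemokine, was lower (53.2 against 354.9), with a list median of -0.35 that was 0.74 with no limit on signal. Both J3T-1 and J3T-1shA were dim for CXCL8 and CCL2 beside the J3T-2 and J3T-2A arrays, which had 7611 and 8418 for CXCL8 and 22771 and 18212 for CCL2. All 8 measured NF-kB genes were within 2-fold, beside 91.94% of all measured genes (list median 0.11). Of 14 measured IL-6 family and JAK-STAT genes, 2 were over 2-fold higher and 0 lower (median 0.44): OSMR, the oncostatin M receptor chain, had 391.5 against 115.5, and MYC, the growth-promoting factor, was 2.05-fold higher. Neither line's array stood alone for OSMR, since J3T-2 and J3T-2A lay between them at 200.8 and 203.2. Of 19 measured interferon genes 4 were over 2-fold higher and 0 lower (median 0.27, or 0.15 with a limit of 500). They were the double-stranded RNA sensors OAS2 and IFIH1, the interferon-induced IFI44L and the ubiquitin ligase DTX3L. IFIH1 had 295.7 against 110.8 and IFI44L had 430.2 against 166.7. The antigen presentation genes among the brightest of that list were within 2-fold, on both sides of 0. B2M, the light chain of class I molecules, had a log2 ratio of 0.08, TAP2 had 0.15, PSMB9 had 0.73 and DLA88 had -0.61.

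ERK targets and feedback genes were the list with the most genes over 2-fold higher beside glycolysis: 6 of 16 measured were over 2-fold higher, 0 lower and 14 above 0 (median 0.52). They were EGR1, FOS, ETV1, DUSP5, MYC and EPHA2. EGR1 had 1043.5 against 106.0 and FOS had 681.6 against 153.3. The transcription factor ETV1 was 4.07-fold higher, with 1.57 by its second probe set, and the phosphatase DUSP5, an ERK feedback inhibitor, had 529.6 against 230.5. DUSP6, another phosphatase of ERK, was within 2-fold, at 20509 against 14419, as was CCND1, the G1 cyclin that ERK induces (0.31).

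Receptors and ligands ahead of ERK ran in both directions. Of 9 measured receptor tyrosine kinases, AXL and TYRO3, receptors of the same family that bind GAS6, were higher (538.8 against 169.6 and 432.5 against 208.3), as was the ephrin receptor EPHA2. The neurotrophin receptor NTRK2 was 7.83-fold lower (287.3 against 2248), with -5.55 by another probe set, MET, the receptor of hepatocyte growth factor, was 3.18-fold lower and FGFR2 was 2.63-fold lower by its brightest probe set and -0.59 by the other. The median over these 9 receptors was -0.14, or -0.48 with a limit of 500. Of 6 measured growth and guidance ligands 2 were lower and 1 higher (median -0.21): SEMA3A, a repulsive guidance cue, had 535.8 against 30.4, while SEMA3C had 148.7 against 478.3 and SLIT3, a ligand of ROBO receptors, had 132.8 against 746.8. The semaphorins of class 3 were thus on opposite sides. Among 6 genes of the IGF axis (median -0.06), the IGF-binding protein IGFBP6 was 2.83-fold higher and IGFBP2 was lower, at 197.9 against 1164. In G protein signalling (1 higher and 2 lower of 9, median 0.51, or -0.35 with no limit on signal), GNB4, a beta subunit, had 13.2 against 606.6, F2RL1, a protease-activated receptor, had 78.8 against 281.4 and PTGER2, a prostaglandin E2 receptor, had 312.2 against 154.2.

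Growth control genes differed little as a group. Of 30 measured cell cycle genes, 28 were within 2-fold, beside 91.94% of all measured genes, and 18 were below 0 (list median -0.30). The exceptions were CDKN1A, the p21 inhibitor of cyclin-dependent kinases, at 9952 against 2877 with 1.93 and 2.05 by 2 other probe sets, and CDC25B, a phosphatase that drives entry into mitosis, at 379.1 against 120.6. Among 14 measured transcription factors of mesenchymal and glial fate, 2 were over 2-fold higher and 0 lower (median 0.36): KLF4, a factor that represses smooth muscle genes, had 775.1 against 161.9, and MEF2A, a muscle and neuronal factor, was 2.24-fold higher with 0.52 and 0.85 by its other probe sets. The mesenchymal factors SNAI2 and ZEB1 were within 2-fold, at -0.34 and 0.71.

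Retinoid and steroid enzymes had the lowest median of the lists with at least 6 measured genes (-1.23, or -0.11 with no limit on signal), with 7 over 2-fold lower and 1 higher of 13 measured. Retinoic acid is made from retinol by way of retinal, bound in cells by CRABP proteins and sensed by RAR receptors. RDH10, the dehydrogenase that makes retinal, was 10.9-fold lower (293.6 against 3206), and DHRS3, which reduces retinal back to retinol, had 167.5 against 447.7. RBP4, the secreted retinol carrier, was 2.93-fold lower (6785 against 19887), with -2.05 by its second probe set. CRABP1 had 87.8 against 579.4 (its relative CRABP2 was under the limit, at 178.8 against 77.1), and RARB, a receptor gene that retinoic acid itself induces, was 4.54-fold lower, with -2.17 by its second probe set. These 5 genes act at different steps of the pathway. CYP1B1, an oxidase of steroids and retinoids, had 222.4 against 3361 (-3.08 by its second probe set), and HSD11B2, which inactivates cortisol, had 128.3 against 300.4. The higher gene was FABP5, a fatty acid carrier that also binds retinoic acid, at 1406 against 320.3. On the J3T-2 and J3T-2A arrays, RARB (219.8 and 209.5) and CRABP1 (131.1 and 181.2) were under the limit and RBP4 was bright (16458 and 22044).

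Lipid mediator genes ran in both directions. Of 11 measured prostaglandin and lipoxygenase genes, 2 were over 2-fold higher and 1 lower (median 0.13, or -0.042 with no limit on signal). PLA2G4A, the phospholipase that frees arachidonic acid, was 2.19-fold higher (0.73 by its second probe set), and ALOX15B, a lipoxygenase, had 1177 against 229.8. PTGES, the inducible prostaglandin E synthase, was 9.93-fold lower (275.5 against 2736), with -6.94 and -4.75 by 2 other probe sets. Outside the lists, ASAH1, the acid ceramidase of lysosomes, was 4.36-fold lower (3520.2 against 15353, and -2.20 by its second probe set), and ACSBG1, an acyl-CoA synthetase of brain and gonads, had 78.7 against 1355. Of 28 measured cholesterol and fatty acid genes, 2 were over 2-fold higher and 0 lower, beside 3.8% and 4.26% of all measured genes (list median 0.15). EBP, a sterol isomerase, was 2.32-fold higher. INSIG1, the sterol-regulated brake on SREBP, was 2.39-fold higher, with 0.61 by its second probe set.

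Sulfur metabolism held 4 genes over 2-fold higher and 2 lower of 24 measured (median -0.05). CDO1, which oxidizes cysteine towards taurine, was 7.35-fold higher (4729.9 against 643.6) and 3 other probe sets gave 2.47 to 2.64. SQOR, the mitochondrial enzyme that oxidizes hydrogen sulfide, was 7.05-fold higher (2038 against 288.9), with 3.14 by its second probe set. The enzymes differed in their place among the lines, since CDO1 was lower on the J3T-2 and J3T-2A arrays (192.4 and 781.8) than on that labelled J3T-1, whereas SQOR was 2347 on the J3T-2 array and 824.9 on the J3T-2A array. The metallothioneins, which bind zinc and copper, were higher, with 32101 against 13628 for MT2A and 2482 against 1107 for MT1E. Glutathione-degrading CHAC1 (78.1 against 416.4) and GGT7, a relative of gamma-glutamyltransferase (111.7 against 372.1), were lower. Bright redox genes were level, at -0.05 for the peroxidase GPX1 and -0.06 for thioredoxin, TXN.

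Glycolysis and hypoxia genes were slightly above 0, with 6 over 2-fold higher, 2 lower and 23 of 32 measured above 0 (median 0.14). The glucose transporter SLC2A3 was 2.70-fold higher (1.12 by its second probe set), and the triose phosphate isomerase TPI1 was 2.14-fold higher (14214 against 6648, and 1.04 by its second probe set). ENO2, the neuronal enolase, and PKM, pyruvate kinase, were 2.18-fold and 2.37-fold higher, with other probe sets at 0.83 to 0.98. The GAPDH signals of 355.9 and 37.2 came from a dim probe set, and the members within 2-fold ranged from -0.99 to 0.99, among them the enolase ENO1 (0.10), the lactate dehydrogenase LDHA (0.09) and the aldolase ALDOA (0.30). DDIT4, a stress-induced brake on mTOR, was 2.41-fold higher, but 0.65 by its second probe set. PFKFB3, which makes the activator of phosphofructokinase, was 2.12-fold lower, and EPAS1, the hypoxia factor HIF-2 alpha, had 127.8 against 505.2. All 47 measured genes of oxidative phosphorylation were within 2-fold, beside 91.94% of all measured genes. They lay between -0.40 and 0.84, and 37 were above 0 (list median 0.20).

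Most genes of protein quality control were within 2-fold, as were 91.94% of all measured genes. Of 21 amino acid stress and unfolded protein genes, 0 were over 2-fold higher and 1 lower (CHAC1), beside 3.8% and 4.26% of all measured genes (list median -0.17). ATF4, the factor of that response, had 15046 against 15131. Of 15 chaperones 2 were lower (median -0.02), SERPINH1 and CRYAB, the small heat shock protein alpha-B crystallin, which had 1481 against 7996 and 742.6 and 2367 on the J3T-2 and J3T-2A arrays. Of 12 measured housekeeping genes, 11 were within 2-fold, beside 91.94% of all measured genes (list median 0.08), and GAPDH was the exception. Of 8 measured S100 proteins, 1 was higher and 1 lower, beside 3.8% and 4.26% of all measured genes (list median 0.24). S100A2, a nuclear p53-linked member, had 1130.1 against 222.7, and S100A1, the muscle and brain member, had 66.7 against 335.9.

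**Figure D4:**
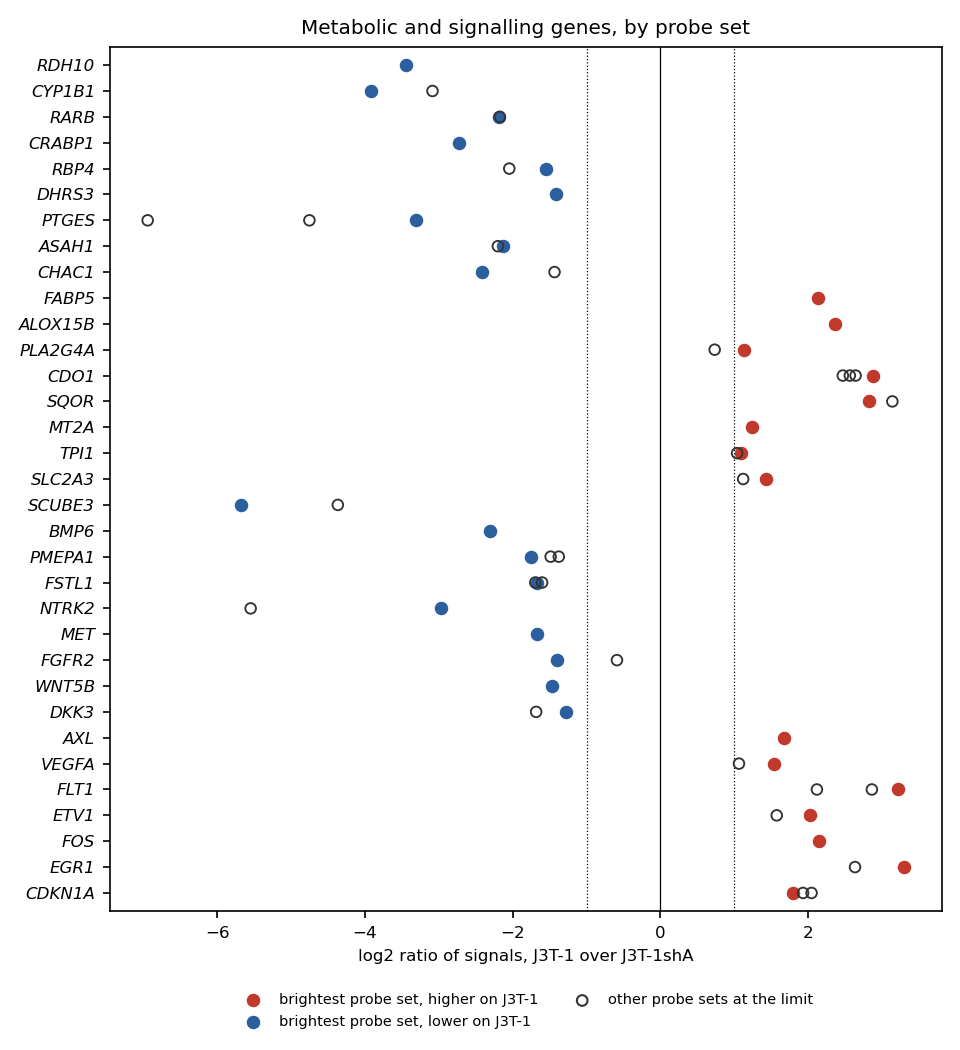
Log2 ratio of signals, J3T-1 over J3T-1shA (x axis), for metabolic and signalling genes named here, chosen after their values were seen. Filled circles are the brightest probe set of each gene (red higher and blue lower on J3T-1) and open circles its other probe sets with a signal of at least 250 on the higher array. Open and filled circles lie on the same side of 0 in every gene drawn, and PTGES and NTRK2 have open circles farther from 0 than the filled one.

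Adhesion genes ran in both directions, and surface genes differed in single members. Among 19 measured adhesion, junction and keratin genes, 6 were over 2-fold lower and 3 higher (median -0.37, or -0.14 with no limit on signal). The mesenchymal cadherins CDH2 and CDH11 were 2.05-fold and 2.52-fold lower, with -1.06 and -1.51 by their second probe sets, and the cell adhesion molecule ALCAM was 2.35-fold lower. Of the 3 higher genes, PPL, periplakin of the cornified envelope and desmosomes, was 6.69-fold higher (1879 against 280.9), and the simple keratin KRT7 was 2.34-fold higher. The membrane skeleton proteins EPB41L1 and EPB41L3 were opposed, at 1042 against 260.9 and 72.2 against 357.7. NES, the stem cell filament nestin, had 150.2 against 345.9. Of 10 immune-modulating surface genes (median 0.11), CD70, the ligand of CD27, had 1234 against 72.1, and IL13RA2, a decoy receptor of interleukin 13, had 45.8 against 447.1. CD47, the signal that restrains phagocytes, was within 2-fold (0.33). Of 20 channels and transporters 2 were higher and 2 lower, beside 3.8% and 4.26% of all measured genes (list median 0.05). Higher were the sugar phosphate exchanger SLC37A2 (2.62-fold, but 0.16 and 0.92 by its other probe sets) and the bicarbonate transporter SLC4A4 (2.03-fold). Lower were SLC1A3 (2.27-fold) and the water channel AQP1 (240.6 against 870.7). CA2, a carbonic anhydrase that makes bicarbonate, had 777.5 against 32.6.

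**Figure D5:**
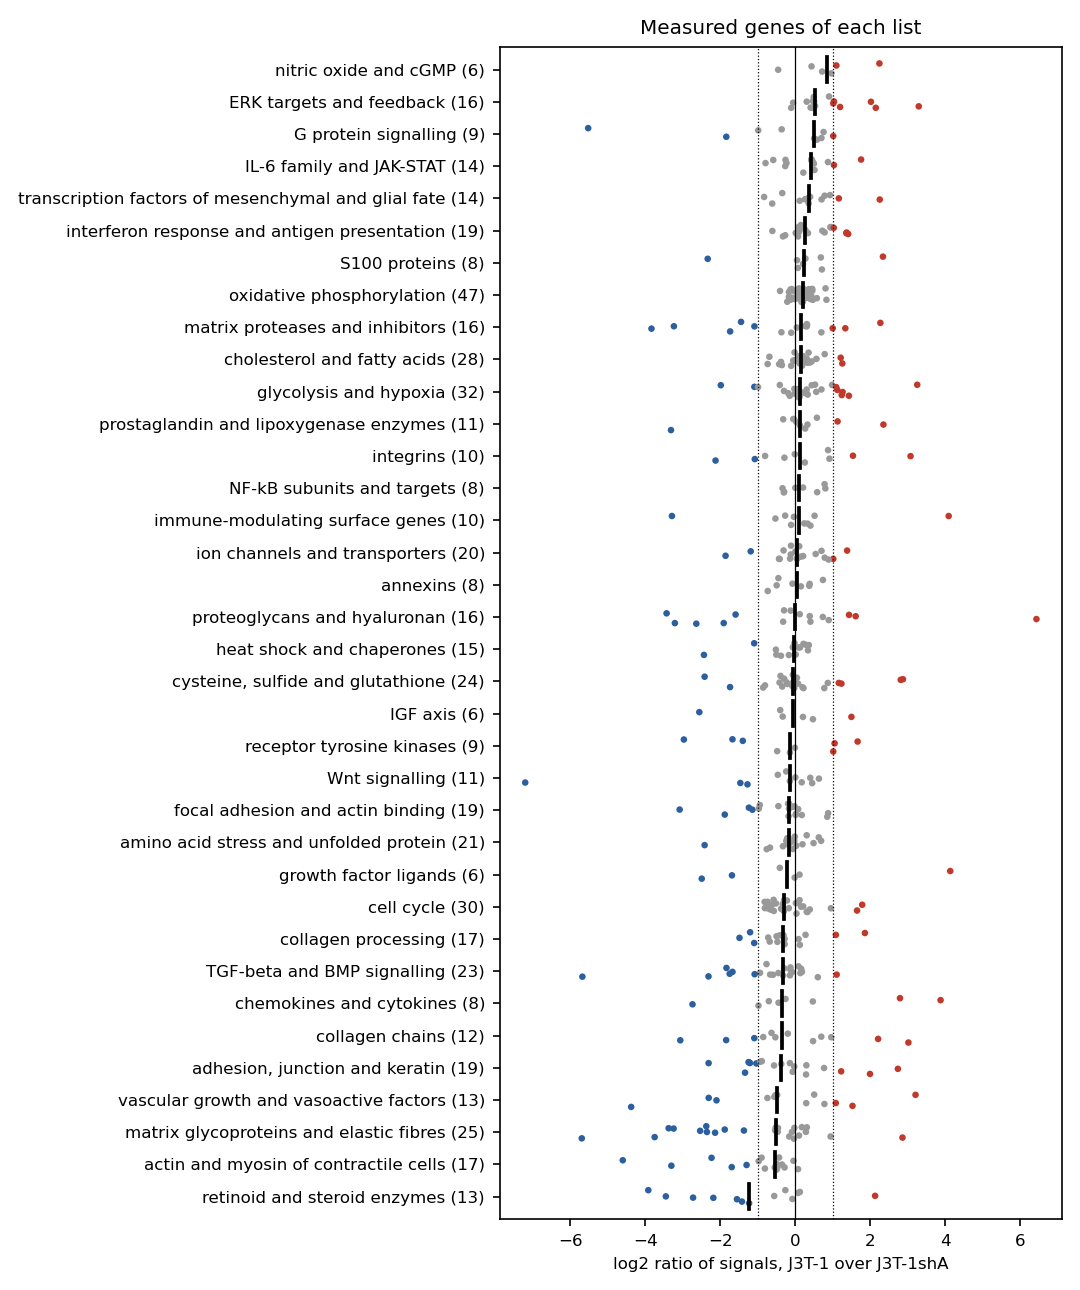
Log2 ratio of signals, J3T-1 over J3T-1shA (x axis), for the measured genes of each list described here with at least 6 of them, lists ordered by their median (black bar), with the number measured in brackets. Red points are over 2-fold higher, blue points over 2-fold lower and grey points within 2-fold, and marker and housekeeping lists are left out. Retinoid and steroid enzymes (median -1.23), contractile genes (-0.54) and matrix glycoproteins (-0.51) are at the bottom and nitric oxide and cGMP (0.84) and ERK targets (0.52) at the top, while all points of oxidative phosphorylation stay between the dotted lines at a ratio of 2.

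The study followed genes reported as shared by its comparisons of ANXA2-high with ANXA2-low lines, among them OSMR, HAS2, GUCY1A1, FABP5, ALOX15B and CA2, given above. Of the rest, RIN2, a Rab5 exchange factor, was 2.69-fold higher, at 831.7 against 309.2 (2.01 by its second probe set), and EIF2D, an initiation factor, was level (-0.06). CUX2, FHL1, NPTX1 and RRAGD were under the limit on both arrays. In J3T-2A over J3T-2, not all of these shared genes were over 2-fold higher by the signals used here. HAS2 (log2 ratio 3.37), GUCY1A1 (1.96) and the transporter SLC37A2 (1.36) were. Within 2-fold were OSMR (0.02), FABP5 (0.26), ALOX15B (0.32), CA2 (0.42), EIF2D (0.48) and RIN2 (0.99). Among genes outside the lists with large ratios on both arrays were the chromatin protein HMGA1 (7637 against 2147) and the drug efflux pump ABCB1 (1254 against 346.7) on the higher side, and the neuronal adhesion molecule NRCAM (360.6 against 1577) on the lower. SNCG, gamma-synuclein, was bright on the J3T-1 array (21068 against 6296, and 1.94 by its second probe set). CASP12, an inflammatory caspase, had 809.6 against 24.2, and 957.1 and 656.0 on the J3T-2 and J3T-2A arrays.

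For some of the genes, the levels on all 4 arrays showed which of the compared lines was the odd one. Among the 264 genes over 2-fold higher, the J3T-1shA array was over 2-fold from each of the other 3 arrays in 100 genes and the J3T-1 array in 32. Among the 296 over 2-fold lower, these counts were 110 and 60. With signals under 250 set to 250, a version chosen after seeing the data, they were 64 and 26 for the higher genes and 82 and 30 for the lower ones. TIMP1, CD70 and CASP12 were genes in which J3T-1shA was the low array, ACTA2, DPT and ANKRD1 genes in which it was the bright one, and SBSPON and RDH10 genes in which J3T-1 was the low one. In 134 of the higher genes and 136 of the lower ones, neither array stood apart from all others, and for some genes both did. With signals under 250 set to 250, neither stood apart in 174 of the higher genes and 188 of the lower ones. Since the lines were each measured once, the difference between these counts was not tested.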

How the data were processed

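Biotinylated RNA of 4 canine lines was hybridized to 1 GeneChip Canine Genome 2.0 array each. The authors computed MAS 5.0 signals array by array, each scaled to a common trimmed mean, and the deposited values are signal intensities on a linear scale without detection calls. The paper gives a trimmed mean of 100, but that of the deposited columns was 495.8 to 496.0 (2% left out at each end), so a limit of 50 on the stated scale was taken as 250. Precision is limited by the number of arrays.

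Of 42924 probe sets, 29254 had 1 gene symbol in the array annotation, 439 had several and 13231 were not listed. The probe set with the highest mean over the 4 arrays stood for its gene. Ratios had no pseudocount, floor or further normalization (Python 3.11.15, numpy 2.4.6, pandas 2.3.3), and the script was tested on simulated data. No genome build is named, so no positions are given.

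Members and all 45 gene lists were chosen with earlier results of these data known. The result of 1 list is not reported here. Named genes were ANXA2, the study's overlap genes, the 25 largest ratios per direction with both arrays at the limit, the 20 brightest with 1 array under it, list members over 2-fold and the 4 brightest of each list. Other genes named within 2-fold or under the limit were chosen after their values were seen. A search of promoter motifs was not run, as no sequences were used here.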

Additional observations from a re-analysis of the deposited data

Results flagged for a closer look

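Of 559 genes of the lists that were measured both in J3T-1 with J3T-1shA and in J3T-2A with J3T-2, 30 (5.37%) were over 2-fold in opposite directions in J3T-1 over J3T-1shA and in J3T-2A over J3T-2, and 11 (1.97%) were over 2-fold the same way. Over all 6563 genes measured in both these counts were 69 (1.05%) and 16 (0.244%). The lists were chosen with earlier results known, so their share is no independent evidence, and with 1 array per line the difference was not tested. The 11 genes that ran the same way were CDO1, GPC3, GUCY1A1, HAS2, MMP2, SLC37A2 and TNC, higher in both, and GNB4, HSD11B2, PTGES and TIMP3, lower in both. Matrix genes and their proteases and inhibitors were thus found on both sides.

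In 18 of the 30 genes all 4 signals reached 250, and the log2 ratios are given with J3T-1 over J3T-1shA first. Lower in the first and higher in the second were COL1A1 (-3.06 and 1.65), CCDC80 (-3.24 and 1.21), SRPX2 (-1.88 and 1.76), PLAU (-1.44 and 1.47), CCN2 (-1.19 and 2.09), BMP6 (-2.31 and 1.3), WNT5B (-1.46 and 1.82), DKK3 (-1.27 and 1.12), MET (-1.67 and 1.07), CRYAB (-2.43 and 1.67), PFKFB3 (-1.09 and 1.14) and SLC1A3 (-1.18 and 1.0). Higher in the first and lower in the second were TEAD4 (1.33 and -1.15), PKM (1.24 and -1.22), SQOR (2.82 and -1.51), SLC4A4 (1.02 and -1.12), PPL (2.74 and -1.13) and KRT7 (1.23 and -1.02).

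In the other 12 genes at least 1 array was under 250, so the log2 ratios rest on dim signals and are no measure of size. The signals are those of J3T-1, then J3T-1shA, then J3T-2, then J3T-2A. SCUBE3 had 94.3, 4823, 203.4 and 412.6 (-5.68 and 1.02). OGN had 138.7, 1282, 30.1 and 288.8 (-3.21 and 3.26), FMOD, of the same proteoglycan family, had 314.7, 1957, 130.8 and 422.7 (-2.64 and 1.69), and LTBP1 had 131.2, 760.0, 108.4 and 263.8 (-2.53 and 1.28). The decoy receptors BAMBI and IL13RA2 had 225.0, 801.0, 229.7 and 666.6 (-1.83 and 1.54) and 45.8, 447.1, 119.7 and 386.4 (-3.29 and 1.69). ANGPT1 had 240.0, 1027, 188.8 and 624.1 (-2.1 and 1.72), and the endothelin receptor EDNRA had 66.0, 326.3, 293.8 and 758.0 (-2.31 and 1.37). SEMA3C had 148.7, 478.3, 76.1 and 253.2 (-1.69 and 1.73), and CXCL16 had 53.2, 354.9, 216.0 and 432.4 (-2.74 and 1.0). The transcription factors FOS and KLF4 ran the other way, with 681.6, 153.3, 1045 and 418.9 (2.15 and -1.32) and 775.1, 161.9, 1945 and 935.1 (2.26 and -1.06).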

How the results depend on the processing

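The counts of 264 genes over 2-fold higher and 296 lower came to 191 to 265 and 204 to 319 under 7 alternatives (a limit of 500, a pseudocount of 80, a floor of 160, the median of the probe sets, the brightest probe set of the pair, quantile normalization and centring). With no limit on signal they came to 1590 and 1650, which adds only genes under 250 on both arrays. Of the 560 genes over 2-fold, 416 stayed so with the pseudocount, 503 with the floor and 504 with the median of the probe sets, as did 180, 189 and 187 of 197 named ones. No named gene over 2-fold crossed 0, but of all 321 measured ones 12 did with the median of the probe sets (EIF2D and TXN among them), 9 with quantile normalization, 3 with centring and 1 with the brightest probe set of the pair, each with a main log2 ratio of at most 0.30 in size. List medians reversed with no limit on signal for matrix proteases and inhibitors (-0.094), chemokines and cytokines (0.74), G protein signalling (-0.35), prostaglandin and lipoxygenase enzymes (-0.042), oligodendrocyte markers (0.11) and neuron markers (0.074), and with a limit of 500 for vascular growth and vasoactive factors (0.51). Medians near 0 also crossed it with no limit for NF-kB genes (-0.16), proteoglycans (-0.16), the IGF axis (0.13), immune-modulating surface genes (-0.11) and the epithelial marker list (0.53), with the median of the probe sets for NF-kB genes (-0.068), and with a limit of 500 for the IGF axis (0.21) and sulfur metabolism (0.048). Medians that moved by over 1.5 times without crossing 0 and are not given above were those of collagen processing (-0.47), vascular factors (-0.24), fibroblast and pericyte markers (-0.34) and growth and guidance ligands (-0.035) with no limit, and of matrix proteases (0.045), channels and transporters (0.15), adhesion genes (-0.22) and neuron markers (-0.070) with a limit of 500, and those of receptor kinases (-0.32) and matrix proteases (0.063) with the median of the probe sets. No paired analysis was possible because each line has 1 array. Leaving out an array would leave no comparison. Dim signals limit every ratio with an array under 250.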
